A study of Mus musculus with 18 samples.

Results

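The insulin-like growth factor (IGF) system was described in mouse fat from 10 genes: the ligands Igf1 and Igf2, the receptors Igf1r and Igf2r, and the binding proteins Igfbp2 to Igfbp7. They were taken by symbol from the expression files, with 1 row per symbol (the row of highest mean RPKM), and are 10 of 52093 symbols. The RNA-seq data came from 18 samples of wild type male C57BL/6 mice, 16 weeks old, that ate a high-fat diet for 12 weeks (HFD). There were 6 samples each of mature adipocytes of inguinal white fat (iWAT adipocytes), mature adipocytes of epididymal white fat (eWAT adipocytes) and whole brown adipose tissue (BAT). The white adipocytes were the floating layer left after collagenase digestion, whereas BAT was frozen whole, so a BAT sample held every cell type of the tissue. The sources name the substrain in more than one way (C57BL/6J and C57BL/6NTac), and a treatment field of the labels gives regular chow where the sample titles and the design give HFD. The study was about Gi protein signalling in adipocytes and used these libraries to look up G protein-coupled receptor genes; the comparisons below put the same 3 tissues side by side for the IGF genes.

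IGF-I and IGF-II are peptides related to insulin. Both act through the IGF-I receptor, a tyrosine kinase, while the IGF-II receptor (also the cation-independent mannose-6-phosphate receptor) carries IGF-II and lysosomal enzymes to the lysosome and does not signal as a kinase. Binding proteins hold the ligands in blood and tissue and decide how much reaches the receptor, and proteases release the ligand again. Growth hormone is the main inducer of Igf1, in fat as in liver, and IGF-I supports the proliferation and differentiation of fat cell precursors.

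Libraries held between 24655056 and 42518483 reads on annotated rows, and brown fat markers set every BAT sample apart from every white sample. The summed RPKM of 5 such markers was 2000 to 2638 in BAT, 9.87 to 12.8 in iWAT and 1.65 to 3.58 in eWAT adipocytes. Ucp1, the uncoupling protein of brown fat, averaged 1858 RPKM (read count divided by row length and library total) in BAT, against 2.26 in iWAT and 0.261 in eWAT adipocytes. The white preparations also held transcripts of other cells. The summed RPKM of 6 macrophage markers was 2670 to 4256 in eWAT, 471 to 916 in iWAT adipocytes and 31.0 to 59.1 in BAT, and that of 6 endothelial markers was 109 to 314 in iWAT, 77.8 to 112 in BAT and 37.4 to 79.9 in eWAT adipocytes. iWAT samples 1 and 5 had the highest endothelial and mural marker sums of their group, and eWAT samples 1 and 3 had the lowest adipocyte and highest macrophage marker sums of theirs. In these 2 eWAT samples the macrophage sums (4220 and 4256 RPKM) were above the adipocyte sums (3433 and 2511 RPKM). Each sum rests largely on 1 gene, Lyz2 (mean 2212 RPKM in eWAT) and Fabp4 (4050). The sums therefore do not measure the amounts of the 2 cell types against each other. In such bulk samples, fewer cells of a type and less RNA per cell cannot be told apart. All BAT libraries ran on lanes 3 and 4 and all white adipocyte libraries on lanes 1 and 2, so lane and tissue cannot be told apart in the BAT comparisons. Preparation and tissue cannot be told apart there either, because all white samples were digested with collagenase and all BAT samples were frozen whole. A fold change below is from edgeR's quasi-likelihood test on read counts, scaled by trimmed mean of M values (TMM), with p-values adjusted by Benjamini-Hochberg over all genes tested. The TMM factors averaged 1.35 in iWAT adipocytes against 0.745 in BAT and 1.37 in eWAT adipocytes against 0.732 in BAT. Therefore a fold against BAT is less in favour of white adipocytes than the ratio of the 2 mean RPKM values. Without TMM, all genes together would have a median log2 value of 0.87 in iWAT and 0.89 in eWAT adipocytes against BAT, instead of 0.01 and -0.02.

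All members but Igfbp2 had enough reads to be tested, a mean of at least 10 over the samples compared. Between iWAT and eWAT adipocytes 7 of these 9 members differed at an adjusted p of 0.05 (edgeR), where 68.6% of the 19623 genes tested did. Of the 7, Igf2, Igfbp3, Igfbp4, Igfbp5 and Igfbp7 were higher in iWAT adipocytes (34.1% of all genes were), and Igf2r and Igfbp6 were higher in eWAT adipocytes (34.5% of all genes). The RPKM ranges of the 2 groups did not overlap for 5 of the 9 members, against 44.0% of all genes. The members' median log2 fold change, iWAT over eWAT, was 1.13, and that of all genes tested was 0.00.

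Between iWAT adipocytes and BAT, 8 of 9 members differed, beside 75.3% of the 19745 genes tested. Of these, 6 were higher in iWAT adipocytes (38.1% of all genes) and 2, Igf2 and Igfbp6, in BAT (37.2%). Ranges were separate for 7 of 9 members and for 65.3% of all genes, and the members' median log2 fold change was 0.98. Between eWAT adipocytes and BAT, 6 of 9 members differed, beside 82.5% of the 20076 genes tested. Igf1, Igf2r and Igfbp4 were higher in eWAT adipocytes (41.1% of all genes) and Igf2, Igf1r and Igfbp3 in BAT (41.4%). Ranges were separate for 5 of 9 members and for 68.4% of all genes, and the members' median was -0.10. Most genes differed between these tissues, so the members' counts are a description and set nothing apart. The split by direction against BAT depended on scaling: by the total count alone, 7 members were higher in iWAT and 1 in BAT, and 7 in eWAT and 1 in BAT.

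**Figure D1:**
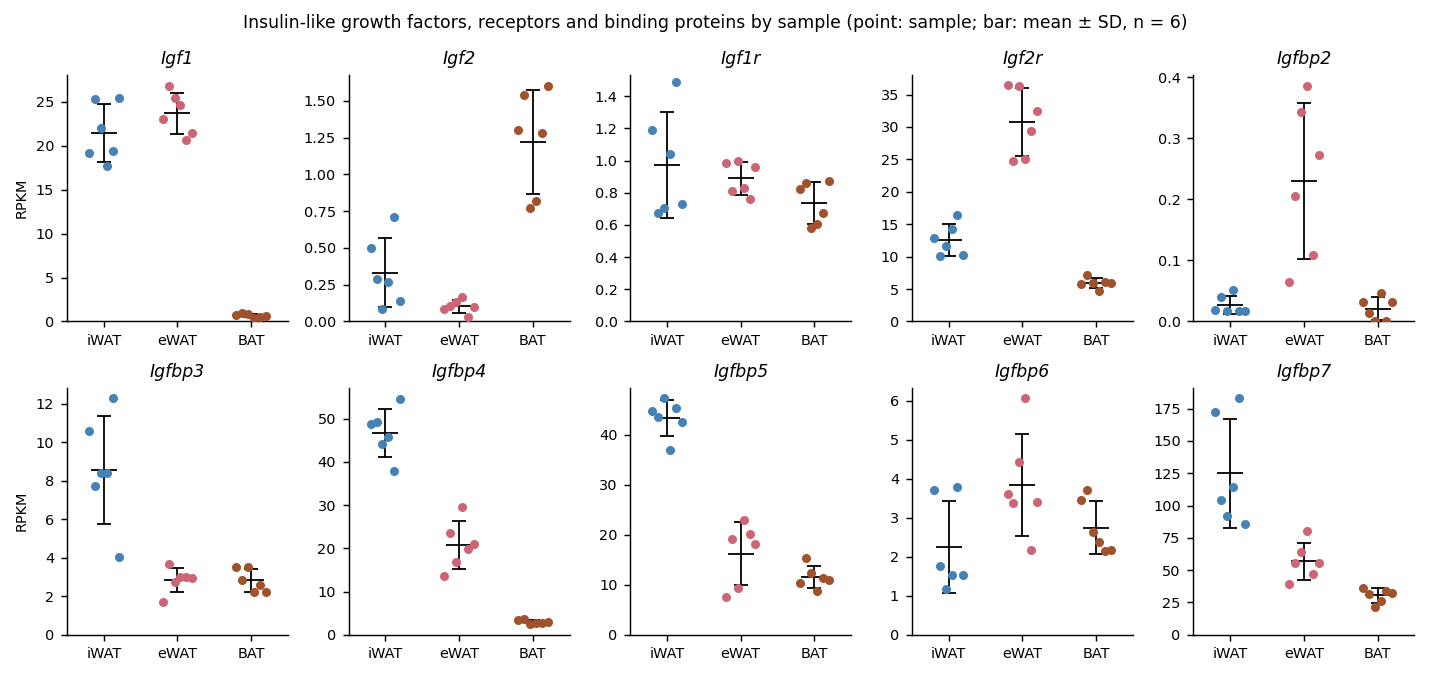
Expression of the 10 members in RPKM (y axis, linear, own scale per panel) in each of the 18 samples, by tissue (x axis); points are samples and bars are mean ± SD (n = 6). Igf1 and Igfbp4 lie near the bottom of their panels in all BAT samples, Igf2 is highest in BAT, and the iWAT points of Igfbp4 and Igfbp5 lie above all other points.

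**Figure D2:**
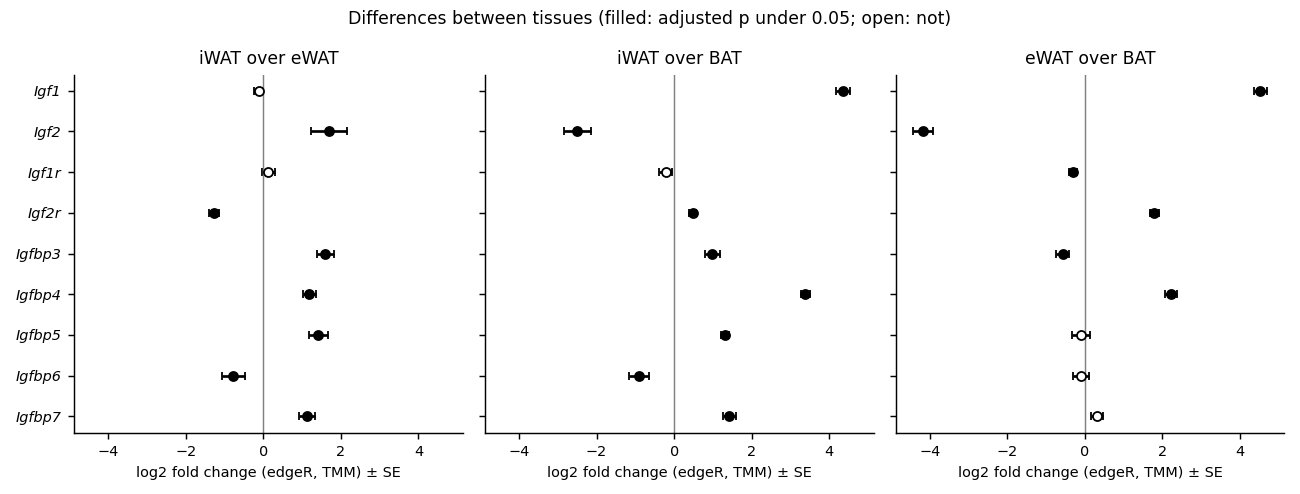
Log2 fold change of each tested member (x axis) in the 3 comparisons, with bars of ± SE; filled points had an edgeR adjusted p under 0.05. The points reach from -4.17 for Igf2 to 4.52 for Igf1, both in eWAT adipocytes against BAT. Those of Igf1r, Igfbp3, Igfbp5 and Igfbp6 in that comparison, and that of Igf1r in iWAT adipocytes against BAT, change side without TMM scaling.

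The ligands divided white adipocytes from brown fat in opposite directions. Igf1 was abundant in both white depots and below 1 RPKM in every BAT sample, whereas Igf2 was low everywhere and highest in BAT. Igf1 (Entrez 16000, mm9 chr10, plus strand, 87321010 to 87399792) ranged from 17.7 to 25.5 RPKM with a median of 20.7 in iWAT adipocytes. It ranged from 20.7 to 26.8 with a median of 23.8 in eWAT adipocytes, and from 0.446 to 0.972 with a median of 0.689 in BAT. Both white groups lay far above every BAT sample and overlapped each other. The edgeR log2 fold change over BAT was 4.36 (SE 0.18, adjusted p = 1.1e-11), or 20.6-fold, in iWAT adipocytes. It was 4.52 (SE 0.17, adjusted p = 2.0e-12), or 22.9-fold, in eWAT adipocytes. Between the 2 white depots the log2 difference was -0.13 (SE 0.11, adjusted p = 0.34 by edgeR), within the replicate spread.

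Macrophages are a known source of IGF-I, and the macrophage marker sums are therefore set beside Igf1. Across the 6 samples within a tissue, Pearson's r of Igf1 with that sum was -0.431 in iWAT, 0.245 in eWAT and 0.424 in BAT, and no relation passed the exact permutation test (adjusted p = 0.608, 0.722 and 0.608). The part of macrophages in the Igf1 level was not tested.

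Igf2 (Entrez 16002, mm9 chr7, minus strand, 149836673 to 149853560), an imprinted gene best known as a fetal growth factor, ranged from 0.774 to 1.6 RPKM in BAT with a median of 1.29. It was 0.0814 to 0.709 RPKM with a median of 0.279 in iWAT and 0.0298 to 0.167 with a median of 0.102 in eWAT adipocytes, where it rested on 5 to 25 reads per sample. All BAT samples were above all white adipocyte samples, whose 2 groups overlapped. Igf2 was 5.66-fold higher in BAT than in iWAT adipocytes (log2 fold change, iWAT over BAT, -2.50, SE 0.35, edgeR adjusted p = 9.4e-06). It was 18-fold higher in BAT than in eWAT adipocytes (-4.17, SE 0.26, adjusted p = 7.3e-10 by edgeR). Between the white depots it was 3.23-fold higher in iWAT (log2 1.69, SE 0.47, edgeR adjusted p = 0.0062). The 2 highest iWAT values, 0.502 and 0.709, were in samples 1 and 5, and without both of them the log2 difference was 0.99 and no longer passed (edgeR adjusted p = 0.052).

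The balance of the 2 ligands was therefore expressed as a ratio within each sample, which needs no scaling between libraries. Igf1 exceeded Igf2 by a geometric mean of 81.9-fold in iWAT adipocytes (27.4 to 270) and 260-fold in eWAT adipocytes (147 to 693). In BAT the ratio was 0.567 (0.384 to 1.1), and Igf2 was the higher of the 2 in all samples but 1. The log2 ratio differed from BAT by 7.18 in iWAT and 8.84 in eWAT adipocytes (exact permutation test, two-sided, adjusted p = 0.00464 for both, the smallest value that the 30 shares and ratios gave). Between iWAT and eWAT the difference of -1.67 passed with an adjusted p of 0.0433 in the same exact test. That call was lost when any of iWAT samples 1, 2, 4 or 5 or eWAT samples 1, 2, 3, 5 or 16 was left out (-0.997, exact adjusted p = 0.131, without iWAT 1 and 5).

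**Figure D3:**
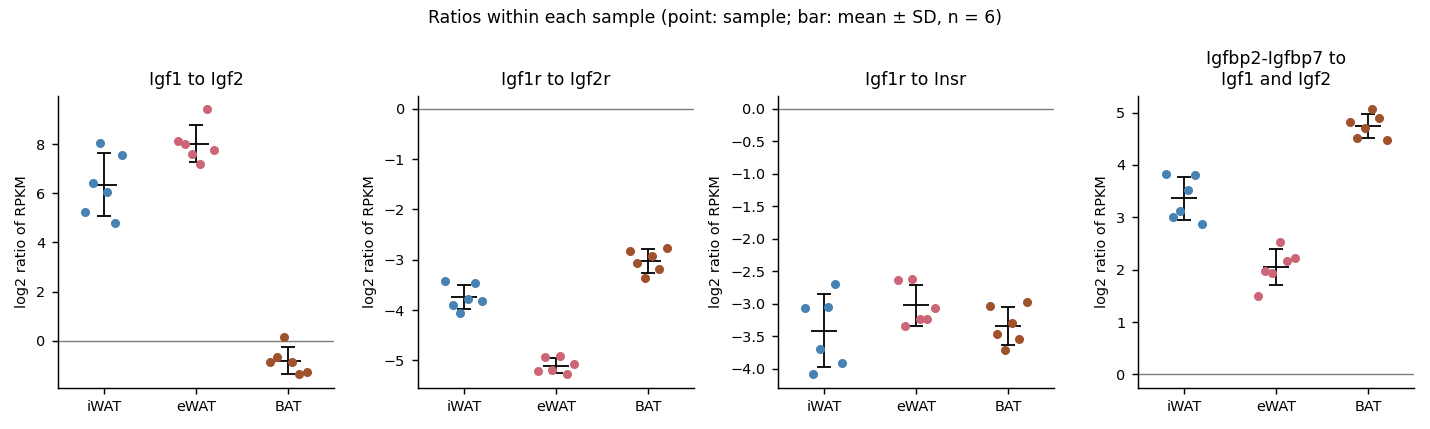
Log2 ratios of RPKM within each sample (y axis) for Igf1 to Igf2, Igf1r to Igf2r, Igf1r to Insr, and summed binding proteins to summed ligands, by tissue; points are samples and bars are mean ± SD (n = 6). Igf1 to Igf2 averages 6.36 in iWAT and 8.02 in eWAT adipocytes but -0.819 in BAT, and Igf1r to Insr overlaps across all 3 tissues.

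The signalling receptor was uniformly low, and the tissues differed mainly in Igf2r. Igf1r (Entrez 16001, mm9 chr7, plus strand, 75097143 to 75378553) ranged from 0.677 to 1.49 RPKM with a median of 0.886 in iWAT adipocytes. The range was 0.759 to 0.997 with a median of 0.894 in eWAT adipocytes and 0.579 to 0.873 with a median of 0.747 in BAT. All 3 groups overlapped. The edgeR log2 fold change was 0.13 (SE 0.17, adjusted p = 0.52) for iWAT over eWAT and -0.21 (SE 0.17, adjusted p = 0.25) for iWAT over BAT. In eWAT adipocytes Igf1r passed as 1.24-fold lower than in BAT (log2 -0.31, SE 0.11, edgeR adjusted p = 0.014), but by total count the same difference was 0.59 in the other direction. Leaving out iWAT sample 5, the highest, made the difference to BAT -0.36 (edgeR adjusted p = 0.029), and by total count it was 0.65. The Igf1r row is 4.16 times as long as the longest GENCODE coding transcript of the gene, so its RPKM is low relative to a gene with a tighter row, in every sample alike.

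Igf2r (Entrez 16004, mm9 chr17, minus strand, 12875272 to 12962572) was highest in eWAT adipocytes, at 24.8 to 36.5 RPKM with a median of 30.9. It was 10.1 to 16.4 with a median of 12.3 in iWAT adipocytes and 4.64 to 7.22 with a median of 5.95 in BAT. No 2 groups overlapped. It was 2.43-fold higher in eWAT than in iWAT adipocytes (log2 fold change, iWAT over eWAT, -1.28, SE 0.13, edgeR adjusted p = 2.7e-06). It was 3.45-fold higher in eWAT adipocytes (log2 1.79, SE 0.12, adjusted p = 1.1e-09) and 1.39-fold higher in iWAT adipocytes (0.47, SE 0.10, adjusted p = 4.9e-04) than in BAT by the same edgeR test. eWAT samples 1 and 3, which had the highest macrophage marker sums, also had the highest Igf2r of their group (36.5 and 36.4), and the part of macrophages in this difference was not tested. Without both, the log2 difference between iWAT and eWAT was -1.16. From start to end, introns included, the Igf2r row overlaps the antisense transcript Airn by 28396 bases. The transcript length of the Igf2r row is 9805 bases, and the overlap within exons was not measured. Airn averaged 0.562 RPKM in eWAT, 0.72 in iWAT and 1.42 in BAT. It is not stated whether strand was used in counting, and the part of Airn reads in the Igf2r counts was not tested.

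Within samples, the ratio of Igf1r to Igf2r was 0.0749 in iWAT adipocytes (0.0603 to 0.0931), 0.0291 in eWAT adipocytes (0.0258 to 0.0331) and 0.123 in BAT (0.0968 to 0.148). The groups did not overlap, and all 3 differences passed the exact permutation test with an adjusted p of 0.00464. With the lengths of the longest GENCODE coding transcripts, the ratio was 0.282, 0.11 and 0.463 in iWAT, eWAT and BAT. Insr, the insulin receptor, averaged 9.98 ± 1.09 RPKM in iWAT, 7.24 ± 0.921 in eWAT and 7.44 ± 1.23 in BAT (SD, n = 6). Igf1r to Insr averaged 0.0936, 0.123 and 0.0986 in iWAT, eWAT and BAT, and no difference between tissues passed (exact permutation test, adjusted p = 0.192, 0.771 and 0.152 for iWAT to eWAT, iWAT to BAT and eWAT to BAT). With the GENCODE lengths Igf1r to Insr averaged 0.376, 0.495 and 0.396. Insr itself was higher in iWAT than in eWAT adipocytes (edgeR log2 0.47, adjusted p = 0.0013). It was lower in eWAT adipocytes than in BAT (-0.63, adjusted p = 2.8e-05 by edgeR), but by total count that difference was 0.28, and with limma on log2(RPKM + 0.1) or log2(RPKM + 1) it was -0.03 and did not pass (adjusted p = 0.79 in both).

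Among the binding proteins, Igfbp7, Igfbp4 and Igfbp5 were the most abundant in iWAT adipocytes, and all 3 were higher there than in eWAT adipocytes and BAT. Marker sums of fibroblasts and of adipocytes themselves were highest in iWAT adipocytes too. Those of 7 fibroblast markers were 534 to 681 RPKM in iWAT, 166 to 292 in eWAT and 37.8 to 61.4 in BAT, and those of 5 adipocyte markers were 11221 to 15701, 2511 to 7806 and 5402 to 6631. Most of the fibroblast sum in iWAT was Dpt, with means of 476, 85.9 and 16.3 RPKM in the same order. Pdgfra (0.771 and 1.06) and Dcn (12.5 and 14.8) averaged lower in iWAT than in eWAT. Lum (15.4 and 14.9), Col1a1 (31.7 and 30.0) and Col3a1 (58.8 and 50.6) averaged slightly higher in iWAT. Pi16 averaged 0.773 in iWAT, 0.421 in eWAT and 1.93 in BAT. The part of the mix of cells in the binding protein differences was not tested. The promoters of these 3 genes are shown because they had the highest RPKM of the binding proteins in iWAT adipocytes, not for the size of their fold changes. Each line gives the 250 bases before the RefSeq start site, 5′ to 3′ on the gene's strand, from GRCm38.p6, a later build than the mm9 rows of the files. The windows are chr11:99040994-99041243 (plus strand) for Igfbp4, chr1:72874866-72875115 (minus strand) for Igfbp5 and chr5:77408046-77408295 (minus strand) for Igfbp7. Capitals mark matches on either strand to a TATA box (TATAAA), a GC box (GGGCGG) or a box of the letters CCAAT, and no match overlaps another.
Igfbp4: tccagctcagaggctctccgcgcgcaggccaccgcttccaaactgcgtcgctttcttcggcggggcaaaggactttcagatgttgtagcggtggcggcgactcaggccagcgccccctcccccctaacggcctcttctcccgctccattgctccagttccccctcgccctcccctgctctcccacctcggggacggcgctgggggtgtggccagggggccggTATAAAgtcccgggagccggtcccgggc
Igfbp5: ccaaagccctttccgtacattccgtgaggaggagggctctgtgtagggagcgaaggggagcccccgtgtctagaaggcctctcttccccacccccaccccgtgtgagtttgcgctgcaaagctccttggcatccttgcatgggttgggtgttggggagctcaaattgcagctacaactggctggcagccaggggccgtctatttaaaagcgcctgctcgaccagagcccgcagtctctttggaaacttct
Igfbp7: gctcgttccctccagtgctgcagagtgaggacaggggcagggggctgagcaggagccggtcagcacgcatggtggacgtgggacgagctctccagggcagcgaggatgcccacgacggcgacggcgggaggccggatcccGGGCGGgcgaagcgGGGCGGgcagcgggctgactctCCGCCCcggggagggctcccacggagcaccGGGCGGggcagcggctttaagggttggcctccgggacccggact
The Igfbp4 window holds 1 TATAAA, a motif in 12.4% of 32851 windows of this length, and the Igfbp7 window holds 4 GGGCGG, a motif in 32.7% of windows. The Igfbp5 window holds none of the 3 motifs (CCAAT is in 33.8% of windows), so the 3 genes share no match to these letters here. The windows contain 69.2%, 58.8% and 74.0% G and C for Igfbp4, Igfbp5 and Igfbp7.

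Igfbp7 (Entrez 29817, mm9 chr5, minus strand, 77778265 to 77837070) encodes a secreted protein of the vessel wall that binds IGFs only weakly. It had the highest RPKM of the 10 members in each tissue. In iWAT adipocytes it ranged from 85.7 to 183 RPKM with a median of 109, in eWAT adipocytes from 38.9 to 80.1 with a median of 55.7, and in BAT from 21.3 to 36.2 with a median of 32.1. No 2 of the 3 groups overlapped in RPKM. Igfbp7 was 2.19-fold higher in iWAT than in eWAT adipocytes (log2 1.13, SE 0.21, edgeR adjusted p = 3.1e-04) and 2.68-fold higher than in BAT (log2 1.42, SE 0.17, edgeR adjusted p = 1.5e-06). The difference between eWAT adipocytes and BAT, log2 0.32 (SE 0.15, edgeR adjusted p = 0.059), did not pass. It did pass with DESeq2 (0.34, adjusted p = 0.043), by total count (1.22), without eWAT sample 1 (edgeR adjusted p = 0.011) or 5 (0.037), and without eWAT samples 1 and 3 together (0.40, adjusted p = 0.017). iWAT samples 1 and 5, with 172 and 183 RPKM, were far above the other iWAT samples (85.7 to 114). Without both, the log2 difference between iWAT and eWAT was 0.86 (edgeR adjusted p = 0.0010).

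Igfbp4 (Entrez 16010, mm9 chr11, plus strand, 98902558 to 98915705), an inhibitor of IGF action until cleaved by the protease Pappa, ranged from 37.9 to 54.5 RPKM with a median of 47.2 in iWAT adipocytes. In eWAT adipocytes it was 13.6 to 29.6 with a median of 20.3, and in BAT 2.48 to 3.67 with a median of 2.8. The 3 groups were fully separate. It was 10.4-fold higher in iWAT adipocytes than in BAT (log2 3.38, SE 0.12, edgeR adjusted p = 2.0e-12) and 4.65-fold higher in eWAT adipocytes than in BAT (log2 2.22, SE 0.16, edgeR adjusted p = 3.2e-09). It was 2.27-fold higher in iWAT than in eWAT adipocytes (log2 1.18, SE 0.17, edgeR adjusted p = 4.5e-05). After Igf1, this was the member with the widest gap between either white depot and BAT in the direction of white adipocytes.

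Igfbp5 (Entrez 16011, mm9 chr1, minus strand, 72904506 to 72921458), a carrier that also binds extracellular matrix, was steady in iWAT adipocytes at 36.9 to 47.4 RPKM with a median of 44.1. It ranged widely in eWAT adipocytes, from 7.59 to 23.0 with a median of 18.7, and from 8.81 to 15.4 with a median of 11.2 in BAT. Every iWAT sample was above every other sample, while eWAT and BAT overlapped. The difference was 2.68-fold from eWAT (log2 1.42, SE 0.24, edgeR adjusted p = 1.7e-04) and 2.47-fold from BAT (log2 1.31, SE 0.10, edgeR adjusted p = 8.9e-09). Between eWAT adipocytes and BAT the log2 difference was -0.10 (SE 0.23, edgeR adjusted p = 0.70), and 0.81 by total count. The 2 lowest eWAT values, 7.59 and 9.26, were in samples 1 and 3, which were also lowest in adipocyte markers (Adipoq, the adipokine adiponectin, was 199 and 150 RPKM there and 396 to 579 in the other 4). Igfbp4 was likewise lowest in these 2 samples, at 13.6 and 16.8 RPKM. Without them the log2 differences between iWAT and eWAT were 1.10 for Igfbp5 and 0.99 for Igfbp4, and both still passed.

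Igfbp3 (Entrez 16009, mm9 chr11, minus strand, 7106089 to 7113926), the main IGF carrier of blood plasma, was highest in iWAT adipocytes as well. It ranged from 4.03 to 12.3 RPKM with a median of 8.39 there, from 1.71 to 3.66 with a median of 2.98 in eWAT adipocytes, and from 2.2 to 3.52 with a median of 2.73 in BAT. The iWAT group lay above the other groups, which overlapped each other. It was 3-fold higher in iWAT than in eWAT adipocytes (log2 1.59, SE 0.22, edgeR adjusted p = 4.0e-05) and 1.98-fold higher than in BAT (log2 0.98, SE 0.20, edgeR adjusted p = 3.0e-04). The mean RPKM was almost equal in eWAT adipocytes and BAT (2.85 and 2.82), and the edgeR difference of -0.58 (SE 0.16, adjusted p = 0.0042, 1.49-fold higher in BAT) became 0.33 by total count.

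Igfbp6 (Entrez 16012, mm9 chr15, plus strand, 101974617 to 101979943), which prefers IGF-II over IGF-I, was low in all tissues and rested on 46 to 208 reads per sample. It was 1.17 to 3.8 RPKM with a median of 1.64 in iWAT, 2.17 to 6.08 with a median of 3.5 in eWAT adipocytes and 2.15 to 3.72 with a median of 2.5 in BAT, and all 3 groups overlapped. It was 1.71-fold higher in eWAT than in iWAT adipocytes (log2 fold change, iWAT over eWAT, -0.77, SE 0.30, edgeR adjusted p = 0.037). It was 1.88-fold higher in BAT than in iWAT adipocytes (-0.91, SE 0.26, edgeR adjusted p = 0.0053). Between eWAT and BAT the difference was -0.11 (SE 0.21, edgeR adjusted p = 0.63) and by total count 0.79. The first call was lost without any of iWAT samples 2, 3, 4 or 16 or eWAT samples 3 or 4 (edgeR adjusted p between 0.063 and 0.091), and with lane as a covariate (-0.72, adjusted p = 0.075). The second was lost by total count (-0.04, edgeR adjusted p = 0.89) and with limma on log2(RPKM + 0.1) (-0.39, adjusted p = 0.19) and log2(RPKM + 1) (-0.26, adjusted p = 0.23).

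Igfbp2 (Entrez 16008, mm9 chr1, plus strand, 72871066 to 72899048) lies next to Igfbp5, 5457 bases apart on the opposite strand, and was close to absent. iWAT samples had 1 to 3 reads, BAT samples 0 to 2 and eWAT samples 5 to 19 (0.0653 to 0.385 RPKM), so that every eWAT sample exceeded every other sample. Over the pooled reads (9 in iWAT, 79 in eWAT and 7 in BAT), the rate was 8.54 times higher in eWAT than in iWAT adipocytes (95% exact Clopper-Pearson interval 4.28 to 19.4) and 13.7 times higher than in BAT (6.33 to 35.1). The intervals cover counting error only. Of 5 markers of mesothelium, the lining of the peritoneal fat depots, 4 were also highest in eWAT adipocytes, among them Wt1, which averaged 0.201 RPKM there, with at most 1 read per sample in iWAT and 0 in BAT. The fifth, Lrrn4, was highest in BAT, and the summed RPKM of the 5 was 1.97 to 2.7 in iWAT, 2.36 to 4.96 in eWAT and 7.05 to 9.91 in BAT. The part of other cell types in the Igfbp2 reads was not tested.

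Ordered by RPKM, Igfbp7 led in iWAT adipocytes at 125 ± 42.0 (mean ± SD, n = 6), ahead of Igfbp4 (46.7 ± 5.6) and Igfbp5 (43.4 ± 3.59), whose ranges overlapped. Igf1 followed at 21.5 ± 3.29, then Igf2r at 12.6 ± 2.45 and Igfbp3 at 8.56 ± 2.79, which overlapped, and Igfbp6, Igf1r and Igf2, of which each overlapped the next. In eWAT adipocytes Igfbp7 (56.9 ± 14.2) was followed by Igf2r (30.7 ± 5.25), Igf1 (23.7 ± 2.36), Igfbp4 (20.7 ± 5.51) and Igfbp5 (16.2 ± 6.28), of which Igf2r to Igfbp5 each overlapped the next. In BAT the order was Igfbp7 (30.4 ± 5.5), Igfbp5 (11.6 ± 2.21) and Igf2r (5.94 ± 0.823), all separate, and then Igfbp4, Igfbp3 and Igfbp6, which overlapped. Igfbp2 was last in iWAT adipocytes and BAT, and in eWAT adipocytes it overlapped Igf2. The order depends on row length, because the Igfbp4 row is 3.32 times as long as the longest GENCODE coding transcript. With those transcript lengths, Igfbp4 and Igfbp7 were 155 ± 18.6 and 146 ± 49.0 RPKM in iWAT adipocytes and 68.7 ± 18.3 and 66.3 ± 16.6 in eWAT adipocytes, no longer in the same order.

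Summed over Igfbp2 to Igfbp7, binding protein expression was 226 ± 43.3 RPKM in iWAT (188 to 282), 101 ± 24.7 in eWAT (65.5 to 142) and 50.5 ± 6.75 in BAT (42.4 to 57.6, SD, n = 6). The mix of binding proteins was compared as each one's share of this sum. Igfbp7 held 54.1% ± 7.77 in iWAT, 56.7% ± 5.22 in eWAT and 60.0% ± 5.75 in BAT, and no difference passed the exact permutation test (adjusted p = 0.55, 0.192 and 0.351 for iWAT to eWAT, iWAT to BAT and eWAT to BAT). Igfbp4 held 21.5% ± 5.39 in iWAT and 20.5% ± 1.7 in eWAT adipocytes but 5.86% ± 0.425 in BAT, lower in all BAT samples than in any white sample (exact permutation test, adjusted p = 0.00464 for both, differences of 15.6 and 14.7 percentage points). Igfbp6 held 0.947% ± 0.314 in iWAT, 3.87% ± 1.12 in eWAT and 5.45% ± 1.03 in BAT, and the iWAT share was lower than either other (exact permutation test, adjusted p = 0.00464 for both). The highest iWAT share of Igfbp6 was 1.35% and the lowest eWAT share 2.35%, whereas its RPKM ranges overlapped. A share also depends on the other binding proteins, whose sum with Igfbp6 averaged 226 RPKM in iWAT and 101 in eWAT.

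Igfbp3 held 5.66% ± 1.41 in BAT, more than in iWAT (3.74% ± 0.825) or eWAT adipocytes (2.86% ± 0.472, exact permutation test, adjusted p = 0.00812 and 0.00464). Its RPKM did not follow its share, with means of 8.56 in iWAT, 2.85 in eWAT and 2.82 in BAT. The share was taken of a smaller sum in BAT. Igfbp5 held 19.7% ± 3.6 in iWAT, 15.9% ± 4.58 in eWAT and 23.0% ± 4.13 in BAT. Only the eWAT to BAT difference of -7.15 points passed (exact permutation test, adjusted p = 0.0382), and it was -4.48 points and did not pass without eWAT samples 1 and 3 (exact test, adjusted p = 0.164). Without any single one of eWAT samples 1, 3 and 4 or BAT samples 2 and 5 it did not pass either. With the GENCODE transcript lengths the Igfbp7 share in BAT, 55.4%, was above the iWAT share by 15.5 points and above the eWAT share by 13.7 points, and both differences passed (exact test, adjusted p = 0.0155 and 0.00722). With these lengths Igfbp7 no longer had the largest mean share in white adipocytes. Igfbp4 held 44.1% in iWAT and 42.9% in eWAT, against 39.9% and 41.7% for Igfbp7, and 15.4% in BAT.

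**Figure D4:**
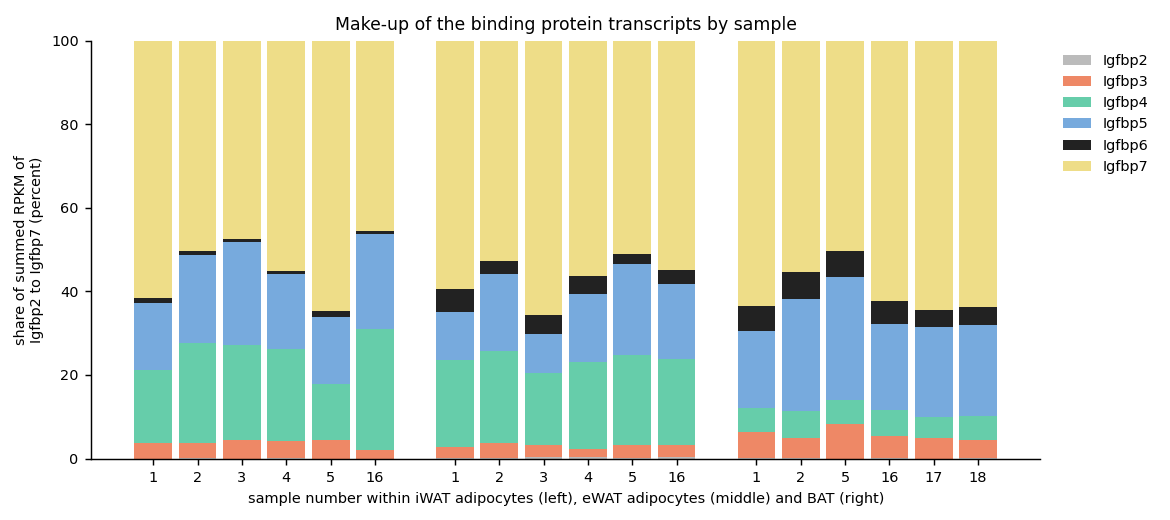
Share of each binding protein in the summed RPKM of Igfbp2 to Igfbp7 (y axis, percent) in each of the 18 samples (x axis, by tissue and sample number); each bar is 1 sample. Igfbp7 fills between 45.5% and 65.6% of every bar, and the Igfbp4 segment shrinks from 13.4% or more in white adipocytes to 6.38% or less in BAT. The shares depend on row length.

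The summed binding proteins exceeded the summed ligands in every sample. The ratio was 10.3 in iWAT adipocytes (7.36 to 14.2), 4.15 in eWAT adipocytes (2.83 to 5.75) and 26.9 in BAT (22.3 to 33.7). The 3 groups were separate and every difference passed the exact permutation test (adjusted p = 0.00464, log2 differences of 1.31 for iWAT to eWAT, -1.39 for iWAT to BAT and -2.7 for eWAT to BAT). BAT thus had the lowest summed binding protein RPKM and the highest ratio to ligand. Mean Igf1 was 0.69 RPKM in BAT, against 21.5 in iWAT and 23.7 in eWAT adipocytes. Igfbp7, which binds IGFs only weakly, held 60.0% of the summed binding proteins in BAT, 54.1% in iWAT and 56.7% in eWAT on average. The ratio is one of transcripts, and the binding of ligand was not tested.

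Since the adipocyte preparations held other cells, the members were set beside marker sums of the cell types known to make them. Igfbp7 followed the endothelial marker sum across the 6 iWAT samples, with Pearson's r of 0.977 (exact permutation p = 0.00139, adjusted p = 0.0167 over 12 relations) and Spearman's rho of 1.0 (p = 0.00278, the smallest that 6 samples allow, adjusted p = 0.0333). It did so in eWAT adipocytes as well, with r of 0.922 (exact p = 0.00417, adjusted p = 0.025) and rho of 0.943 (exact p = 0.0167, adjusted p = 0.0667). Without the 2 samples farthest from the median marker sum, r was 0.961 and 0.856. In BAT r was 0.913 (exact p = 0.00972, adjusted p = 0.0292) and rho 0.829 (exact p = 0.0583, adjusted p = 0.175), but r was 0.37 without 2 samples, so that the relation to the marker sum rests on those samples. With the endothelial marker Cdh5 alone, r in BAT was 0.919 (exact adjusted p = 0.0208), and 0.778 without 2 samples. Igfbp3 followed the endothelial markers in iWAT adipocytes (r of 0.869, exact p = 0.00694, adjusted p = 0.0278, and rho of 0.943, exact p = 0.0167, adjusted p = 0.0667). With 2 samples left out r was 0.837. In eWAT and BAT r was 0.373 and -0.113 (exact adjusted p = 0.722 and 0.796). The sums of 5 mural cell markers (73.2 to 245 RPKM in iWAT) put the 6 iWAT samples in the same order as the endothelial sums, so in these samples the 2 cell types cannot be told apart. Igfbp6 with the fibroblast marker sum gave r of 0.212, 0.66 and 0.777 in iWAT, eWAT and BAT, and none passed (exact adjusted p = 0.732, 0.464 and 0.16). Dpt makes up most of that sum in iWAT adipocytes (476 RPKM on average). Without Dpt r was 0.908, 0.392 and 0.647, and none passed (exact adjusted p = 0.103, 0.576 and 0.358), with r of -0.112 in iWAT when 2 samples were left out. All marker sums are RPKM of the same libraries as the members, and what share of the tissue differences other cells account for was not tested.

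Between tissues the 2 measures did not keep the same order. Mean Igfbp7 RPKM was higher in eWAT adipocytes than in BAT, although the edgeR difference given above did not pass. The endothelial marker sum was below 80 RPKM in all eWAT samples (37.4 to 79.9) and 77.8 to 112 in BAT, and these ranges overlapped.

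**Figure D5:**
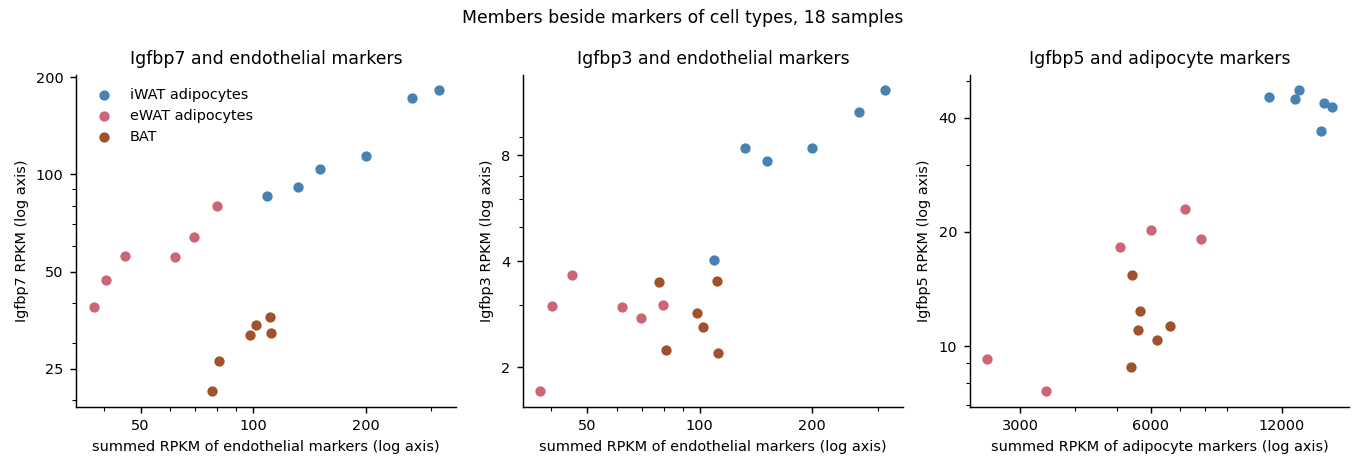
RPKM of Igfbp7 and Igfbp3 against the summed RPKM of 6 endothelial markers, and of Igfbp5 against the summed RPKM of 5 adipocyte markers, on log axes; each point is 1 of 18 samples, coloured by tissue. Within iWAT adipocytes the Igfbp7 points rise with the endothelial sum from 109 to 314 RPKM, and eWAT samples 1 and 3 lie lowest in both Igfbp5 and adipocyte markers within their group.

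A list of 43 other genes of the pathway, by role, was counted in the same edgeR tests, of which 34 had enough reads each time. Between iWAT and eWAT adipocytes 27 differed, 21 higher in iWAT and 6 in eWAT (median log2 fold change 0.84, against 0.00 for all genes). These are 79.4% of the list, beside 68.6% of all genes. Between iWAT adipocytes and BAT 24 differed, 18 and 6 (median 0.35), or 70.6% of the list beside 75.3% of all genes. Between eWAT adipocytes and BAT 32 differed, 17 and 15 (median 0.27), or 94.1% beside 82.5%. Counts by role below stand beside 34.1% of all genes higher and 34.5% lower in iWAT than in eWAT adipocytes. Against BAT, 38.1% were higher and 37.2% lower in iWAT adipocytes, and 41.1% higher and 41.4% lower in eWAT adipocytes. The roles hold few genes, and nothing is read from their counts alone. By total count the split was 28 and 2 for iWAT against BAT and 21 and 7 for eWAT against BAT.

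Of 6 growth hormone axis genes, 5 were higher in iWAT than in eWAT adipocytes and none lower. Against BAT 2 were higher and 2 lower in iWAT adipocytes, and 2 were higher and 4 lower in eWAT adipocytes. Ghr, the growth hormone receptor, was 60.0 to 103 RPKM in iWAT with a median of 79.0, 14.5 to 51.1 with a median of 40.8 in eWAT and 9.64 to 14.7 with a median of 12.0 in BAT. The iWAT samples were above all others. Ghr was higher in iWAT than in eWAT adipocytes (log2 1.18, edgeR adjusted p = 0.0039) and higher than in BAT in both (2.12, adjusted p = 2.2e-09, and 0.96, adjusted p = 0.0044, by edgeR), and its 2 lowest eWAT values were again in samples 1 and 3.

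Of the carriers and proteins related to the binding proteins, 4 of 7 tested were higher in iWAT than in eWAT adipocytes and 1 lower. Against BAT 5 of 6 were higher and none lower in iWAT adipocytes (Wisp1 was not tested), and 5 of 6 were higher and 1 lower in eWAT adipocytes (Esm1 was not tested). Igfals, the acid-labile subunit that holds IGF and Igfbp3 or Igfbp5 in a complex in blood, averaged 21.5 ± 3.64 RPKM in iWAT, 7.39 ± 3.6 in eWAT and 0.406 ± 0.22 in BAT (SD, n = 6). Its groups were separate in all pairs, with edgeR log2 fold changes of 1.56 (adjusted p = 6.9e-04) for iWAT over eWAT, 5.12 (adjusted p = 4.9e-11) for iWAT over BAT and 3.59 (adjusted p = 6.6e-07) for eWAT over BAT. The 2 lowest eWAT values of Igfals, 2.8 and 3.26 RPKM, were in samples 1 and 3. Cyr61, a matrix protein with an IGF-binding type domain, averaged 315 RPKM in iWAT adipocytes and 13.2 in BAT (log2 3.96, edgeR adjusted p = 8.5e-10). Igfbp1, the binding protein of liver, had no read in iWAT and at most 1 read per sample in eWAT and BAT, where 3 reads would be 0.0742 and 0.0858 RPKM.

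Of 5 proteases and protease inhibitors tested, 3 were higher in iWAT than in eWAT adipocytes and 1 lower. Against BAT 4 were higher and none lower in iWAT adipocytes, and 4 were higher and 1 lower in eWAT adipocytes. Stc2, which inhibits Pappa, averaged 1.87 RPKM in iWAT adipocytes and 0.071 in BAT (log2 4.10, edgeR adjusted p = 2.6e-09). Pappa itself was at 0 to 22 reads per sample and 0.0166 to 0.0272 RPKM on average per tissue, too few for the test. Of 13 receptor and signalling genes, 9 were higher in iWAT than in eWAT adipocytes and 2 lower. Grb14, an adaptor that inhibits the insulin receptor, averaged 12.5 RPKM in iWAT and 3.56 in eWAT adipocytes (log2 1.82, edgeR adjusted p = 8.1e-05). Its 2 lowest eWAT values, 1.94 and 1.67 RPKM, were also in samples 1 and 3. Against BAT 6 of these 13 were higher and 1 lower in iWAT adipocytes, and 5 were higher and 7 lower in eWAT adipocytes.

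Of 6 RNA-binding and locus partners only 3 could be tested between iWAT and eWAT adipocytes, and of these none was higher in iWAT and 2 were lower. Against BAT 1 of 4 was higher and 3 lower in iWAT adipocytes, and 1 was higher and 2 lower in eWAT adipocytes. Igf2bp2, an RNA-binding protein named for its binding to Igf2 transcripts, ranged from 9.75 to 14.4 RPKM in eWAT adipocytes, from 2.04 to 3.31 in iWAT and from 0.325 to 0.537 in BAT. All groups were separate. It was 4.40-fold higher in eWAT than in iWAT adipocytes (log2 fold change, iWAT over eWAT, -2.14, edgeR adjusted p = 1.7e-07) and 18.9-fold higher in eWAT adipocytes than in BAT (4.24, edgeR adjusted p = 2.6e-12), the reverse of the Igf2 order. The 2 highest eWAT values of Igf2bp2, 14.4 and 14.3, were in samples 1 and 3, and the part of macrophages in them was not tested. H19, the untranslated RNA next to Igf2 in the same imprinted domain, ranged from 0.151 to 2.4 RPKM in BAT, against 0.0559 to 0.164 in iWAT and 0.0129 to 0.0743 in eWAT adipocytes. H19 rested on only 4 to 13 reads per sample in iWAT and 1 to 8 in eWAT adipocytes, so the size of its fold changes is uncertain. It was higher in BAT than in iWAT (log2 fold change, iWAT over BAT, -3.93, edgeR adjusted p = 5.1e-05) and eWAT adipocytes (-5.09, edgeR adjusted p = 1.2e-05), the same direction as Igf2. BAT samples 2 and 17 had the lowest H19 of their group, 0.218 and 0.151 RPKM, and the other BAT samples 0.784 to 2.4. The same 2 samples had the lowest summed RPKM of skeletal muscle markers in BAT (1.47 and 15.5). The part of muscle in the H19 difference was not tested.

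The genes most like each member were found by Pearson's r of log2(RPKM + 0.1) over the 18 samples, among genes of at least 1 RPKM on average. These r values share libraries and tissue groups, and are descriptions without a test. Igf1 was closest to Paqr7, a membrane progestin receptor, and Ugt1a2 (both 0.997), and Igf2r to Fgd6 (0.996) and Stard8 (0.995). Igfbp3 was closest to Apln, which encodes the peptide apelin (0.967), and Crip2 (0.95), Igfbp4 to Kcnj14 and Mxra8 (both 0.995), Igfbp5 to Nedd4 (0.986) and Podn (0.985), and Igfbp7 to Fbln5, an elastic fibre protein (0.985), and Hspa2 (0.976). Igf2 was closest to Cbfa2t3 (0.974) and Ano1 (0.966). Igf1r had weaker best matches in Arsa (0.926) and Myo10 (0.924), Igfbp6 in Clec3b (0.868) and Pla1a (0.846), and Igfbp2 in Cd72 (0.861) and LOC100504743 (0.859).

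After the mean of each tissue was subtracted, so that only differences between samples of the same tissue remained, the closest genes were others, except that Paqr7 stayed among the 2 closest to Igf1 (0.803, after B230354K17Rik at 0.84). Igfbp7 was closest to Pvrl2 (0.975) and Vwa1 (0.961), and Igfbp6 to Olfm2 (0.951) and Plvap, a protein of endothelial fenestrae (0.898). Igf2 was closest to Ace, the angiotensin-converting enzyme of vessel walls (0.935), and Mgp (0.933). Igf1r was closest to Arhgap31 (0.97) and Zkscan17 (0.953), Igf2r to Myo9b (0.95) and Stxbp5 (0.935), and Igfbp5 to Msrb3 (0.942) and Enc1 (0.94). Igfbp4 was closest to Gm2415 (0.914) and Clstn3 (0.908), Igfbp3 to ENSMUSG00000089646 (0.862) and Plscr2 (0.855), and Igfbp2, with few reads, to Hoxb6 (0.738) and Kifc2 (0.67).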

How the data were processed

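RNA of 18 samples (NEBNext Ultra libraries) had been trimmed, aligned and counted by the authors; the submitters' processing notes name cutadapt 1.16, HISAT2 2.1.0 and mm9. The deposited files give, per transcript row (53445 rows, 52093 symbols), a read count and an RPKM computed by the authors from it. Whether counting used strand is not given in the sources used here. Of 1220 symbols with several rows, the row of highest mean RPKM was kept. Reads on rows numbered 26768529 to 30166441 in iWAT, 24655056 to 37438994 in eWAT and 27402247 to 42518483 in BAT.

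Counts were tested with edgeR 4.0.16 in R 4.3.3 (TMM, quasi-likelihood, two-sided, 6 against 6 samples of the 2 tissues compared, mean count of at least 10, Benjamini-Hochberg over all genes, threshold 0.05). Shares and ratios of RPKM were compared by two-sided exact permutation tests (smallest p 0.00216) adjusted over 30 tests, and correlations by exact permutation over 12 relations. Alternatives were DESeq2 1.42.0, limma 3.58.1 on log2(RPKM + 0.1) and log2(RPKM + 1), no TMM, no filter, summed rows, 1 fit of all samples, lane, a fold bound and leaving out samples.

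The labels do not say that each sample was a separate mouse, so p-values measure the spread between these samples; no 2 libraries of a group agreed within sampling noise. Named were all members, of the pathway list the 3 genes per comparison with the widest called fold change plus Insr, Igfals, Pappa, Ghr, H19 and Igfbp1, and the 2 genes most like each member over all samples and after subtracting tissue means. Members and lists were chosen with earlier results of these data known. Promoter sequences are from RefSeq (GRCm38.p6), where all 10 members matched by symbol.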

Additional observations from a re-analysis of the deposited data

Results flagged for a closer look

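In 77 groups of 6 samples of members' RPKM, shares, ratios and named genes, 3 held a sample far from the other 5 by Dixon's criterion, where chance gives about 3.85. The Igfbp3 share of summed binding protein RPKM was 2.14% in iWAT sample 16 and 3.74% to 4.35% in the other iWAT samples (gap over range 0.724). The Igfbp4 share was 17.2% in eWAT sample 3 and 20.6% to 22.2% in the others (0.68). Igfbp1 was at 0.0221 RPKM in eWAT sample 3, which is 1 read, and at 0 in the other 5.

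A short additional Igfbp3 row, which was not used for the gene's values, held 7 reads in BAT sample 1 and 0 to 2 reads in all other samples.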

How the results depend on the processing

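Counts of members and pathway genes that differed kept within 1.5 times of their value under DESeq2, limma, no TMM, no filter on reads, summed rows and 1 fit of all samples. With an absolute log2 fold change of at least 1 added, the members differing between iWAT adipocytes and BAT were 5, the pathway genes 17, 15 and 17, and all genes 4892, 7363 and 9830 (iWAT to eWAT, iWAT to BAT and eWAT to BAT, here and below); fewer genes pass a bound by construction. By total count, without TMM, differences against BAT turned to Igf1r 0.65 and Insr 0.67 in iWAT adipocytes, and to Igf1r 0.59, Igfbp3 0.33, Igfbp5 0.81, Igfbp6 0.79 and Insr 0.28 in eWAT adipocytes. With limma on log2(RPKM + 0.1) and log2(RPKM + 1), Insr in iWAT adipocytes against BAT was 0.43 and 0.39, and in eWAT adipocytes Igf1r was 0.25 and 0.12 and Igfbp3 0.00 and 0.01. These values move with the scaling, which shifts the median of all genes against BAT. Without the filter Igfbp2 could be tested, and was lower in iWAT than in eWAT adipocytes (log2 -2.93, edgeR adjusted p = 2.0e-04) and higher in eWAT adipocytes than in BAT (2.90, adjusted p = 2.1e-04).

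Leaving out 1 replicate at a time, the members that differed were 6 to 7, 8 to 9 and 6 to 7, the pathway genes 26 to 29, 24 to 25 and 31 to 34, and all genes 12667 to 13562, 14434 to 14833 and 16270 to 16552. Shares that differed were 8 to 11 (9 with all samples), and ratios 8 to 9 (9). Chosen after seeing the data, leaving out eWAT samples 1 and 3, iWAT samples 1 and 5 or BAT samples 2 and 17 together gave 6 to 9 members per comparison. Without iWAT samples 1 and 5, Igfbp6 between iWAT and eWAT adipocytes was -1.30 (edgeR adjusted p = 9.4e-04), and Igf1r between iWAT adipocytes and BAT was -0.46 and passed (edgeR adjusted p = 0.0061). With GENCODE transcript lengths, also chosen after seeing the data, the Igfbp5 share between iWAT adipocytes and BAT differed by -6.01 points (exact adjusted p = 0.00722).

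With the sample number as a replicate block, members that differed were 6, 8 and 7, pathway genes 26, 24 and 32, and all genes 12836, 12486 and 15146. Igfbp6 between iWAT and eWAT adipocytes no longer passed in that fit (-0.83, edgeR adjusted p = 0.071), and between eWAT adipocytes and BAT it did (-0.58, edgeR adjusted p = 0.0096). The labels do not say what a shared number means, and same-numbered samples did not deviate together (correlations of deviations from -0.241 to 0.42). The cause of calls gained or lost was not tested.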

Other observations

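Within BAT, H19 and skeletal muscle markers were lowest in the same samples. H19 was 1.74, 0.218, 1.19, 2.4, 0.151 and 0.784 RPKM in BAT samples 1, 2, 5, 16, 17 and 18. The summed RPKM of 4 skeletal muscle markers was 78.2, 1.47, 98.6, 66.9, 15.5 and 56.6 in the same order. Igf2 did not share that order, at 1.54 and 1.28 RPKM in samples 2 and 17 and 0.774 to 1.6 in the other 4.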
